A study of Oryzias latipes with 2 samples.

Results

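Runs of neighbouring gene entries without a single read were examined at stage 24, in the middle of somite formation, in embryos of the medaka (Oryzias latipes), a freshwater fish widely used in developmental genetics. A run was taken as 4 or more successive lines of the deposited gene tables with 0 counted reads in both replicates. This gave 34 runs with 204 lines among the 20259 lines of the tables. There was 1 group of 2 replicates, titled ICab (a laboratory medaka strain), each made from 60 whole embryos that had been kept at 26 °C and dechorionated by hand, with no treatment named. RNA sequencing (Illumina) gave 22661195 counted reads in replicate 1 and 23055861 in replicate 2. No label states that the pools were of separate clutches or days, and differences between them may thus be technical. The counts of 0 chose the members, and their absence of reads is therefore a description and no finding.

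A line of the table is a gene entry, usually 1 Ensembl gene with its transcripts. Vertebrate genomes hold arrays of related genes that lie side by side, such as those for olfactory receptors or histones, and genes used in 1 adult organ can be silent in an early embryo. RNA sequencing from whole embryos averages over all tissues, and few cells with a transcript cannot be told apart from little transcript per cell. The gene list at hand carries no Ensembl identifiers, so none of the 20422 gene identifiers could be matched to a name. The runs are therefore given by identifier. Whether any run is an array of related genes was not tested.

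Lines without reads stood together far more often than a random order of the same lines would place them. Of all lines, 1661 had 0 reads in both replicates, a background of 8.20%. The runs held 204 of these, or 12.3%. A random order of the 1661 lines among 20259 would give 0.838 runs of 4 or more on average, with 3.43 lines or 0.206% of the lines without reads. The tables thus held 40.6 times as many runs as that average. The line after a line without reads was itself without reads in 442 of 1661 cases (26.6%), against 1219 of 18597 (6.55%) after a line with reads. Most lines without reads still stood alone (969 lines, 58.3%), and 488 (29.4%) stood in groups of 2 or 3. The random-order averages were calculated exactly and carry no p-value, because the runs were defined by the same counts.

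The runs were mostly short. There were 13 runs of 4 lines, 7 of 5, 6 of 6, 1 of 7, 3 of 9, 3 of 11 and 1 of 14, with a median of 5 lines. Just below the limit, 56 runs of 3 lines were left out, against 9.40 in a random order on average. A random order would give 0.769 runs of exactly 4 lines and 0.0629 of exactly 5. Single lines were fewer than in a random order, 969 against 1399.9. Pairs numbered 160 against 114.7.

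**Figure D1:**
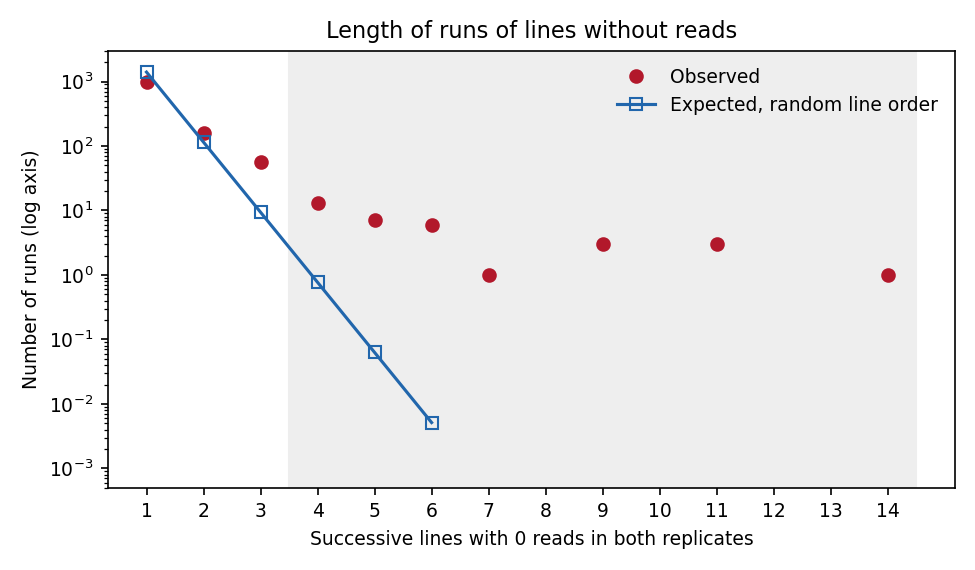
Number of runs (vertical, log axis) by the number of successive lines with 0 reads in both replicates (horizontal). Red circles are the observed runs and blue squares the average for a random order of the lines (drawn for up to 6 lines); the grey area marks the runs described here, where 13 runs of 4 lines stand above an average of 0.769 and the longest run has 14 lines.

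The members fell into 2 classes by the number in their identifier. From ENSORLG00000020900 on, every one of 731 lines listed a single transcript, and the 272 of them with a read were between 51 and 357 bp long, with a median of 93 bp. The other 19528 lines had numbers up to 20899, and the 14541 of them with 1 transcript and a read had a median length of 1188 bp. Lengths come from the ratio of reads to RPKM (the reads of an entry per kilobase and per 1000000 library reads) and cannot be had for a line without reads. The boundary was set just above the last identifier with several transcripts or a known length over 400 bp. Single transcripts and short known lengths thus define the upper class and are no finding about it. The boundary was chosen after the values were seen, and the classes are called high-number and low-number lines here. High-number lines lacked reads in 459 of 731 cases (62.8%), and low-number lines in 1202 of 19528 (6.16%). High-number lines made up 61 of the 204 run lines (29.9%), 398 of the 1457 lines without reads outside runs (27.3%) and 3.61% of all lines. What kind of transcript they are was not tested.

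Both classes placed a like share of their lines without reads in runs. It was 61 of 459 (13.3%) for high-number lines and 143 of 1202 (11.9%) for low-number lines. These shares do not compare clustering, since 62.8% of high-number lines lacked reads against 6.16% of low-number lines. By makeup, 21 runs with 130 lines were wholly low-number, 9 runs with 51 lines wholly high-number, and 4 runs with 23 lines mixed. When lines without reads were placed at random only among the places of their own class, the average was 7.78 runs with 34.99 lines, since high-number lines also stand together (233 of 731 were followed by another). The 34 observed runs, of both classes together, were 4.37 times that average. With high-number lines taken out of the table, low-number lines alone formed 22 runs with 138 lines, against an average of 0.262 runs in a random order. The low-number lines thus formed 84.0 times that average. No average was calculated for high-number runs alone, so the 4.37 does not describe them on their own. In stretches of 4 or more successive high-number lines, 68 of 136 lines lacked reads (50%), against 65.7% of the high-number lines elsewhere. High-number lines without reads were thus not more frequent in such stretches. Neighbouring high-number lines were often alike, however. Of the 233 pairs of successive high-number lines, both lacked reads in 47 pairs within runs and in 78 within groups of 2 or 3. In 85 pairs both lines had reads. With 62.8% of high-number lines lacking reads, many pairs would be alike even if neighbours were unrelated. The number to be had in that way was not calculated, and the likeness of neighbours was not tested.

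The identifiers within low-number runs were close, and they rose as in the rest of the table. Their 21 runs held 109 steps between successive identifiers, of which 1 was descending and 90 were between 1 and 10. Over all pairs of successive low-number lines, 426 of 19029 steps (2.24%) were descending, so the rising order is not particular to the runs. In 10 of the 21 runs every step was between 1 and 10. The identifiers of a low-number run spanned a median of 29, between the first and last line. Across all runs, pairs of successive low-number lines had a step of 1 to 10 in 98 of 118 cases (83.1%) and a median step of 6. For pairs of low-number lines that both had reads it was 6980 of 16959 (41.2%), with a median step of 13.

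Small steps were about as frequent in shorter groups of lines without reads. In groups of 2 or 3 lines without reads, low-number steps were between 1 and 10 in 126 of 156 cases (80.8%), with a median of 5. Steps also differed by length and by the number of transcripts among lines with reads. Where both lines had a known length up to 750 bp, 69.9% of 1072 low-number pairs had a step of 1 to 10, against 37.7% of 5715 pairs with both lengths over 750 bp. Where both lines had reads and 1 transcript each, it was 48.9% of 10728 pairs, and within runs 83.9% of 87 such pairs. Where both lines had reads and were under 1 RPKM in each replicate, it was 53.0% of 948. The lengths of the run lines are not known, and the part of length in their small steps was not tested.

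High-number runs had no such order. Their 42 steps included 22 descending ones and 1 between 1 and 10, and each of the 9 runs held at least 1 descending step. All pairs of successive high-number lines were alike in this, with 116 descending steps among 233. High-number runs mostly stood between low-number lines. Only 233 of all 731 high-number lines were followed by another, so low-number neighbours are not particular to the runs. In 8 of the 9 both flanking lines were low-number, and in 5 of these 8 the identifier after the run was 1 to 100 above the one before it. For the run from ENSORLG00000021397 to ENSORLG00000021403 the flanking identifiers were ENSORLG00000017937 and ENSORLG00000017939, only 2 apart.

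Along the table, low-number identifiers rose in 24 sections, separated by 23 drops of more than 3000. A last stretch of 2371 lines, from line 17889, held identifiers above 18000 in no steady order. Medaka has 24 pairs of chromosomes, but none of the sources used here states whether the sections follow them. Before the last stretch there were 28 runs. The run of 5 high-number lines from ENSORLG00000021210 to ENSORLG00000020913 lay at a drop, between ENSORLG00000015617 and ENSORLG00000000041. The other 27 lay in 14 of the 24 sections, with at most 5 in 1 section. The last stretch held 6 runs with 33 lines, 3 of them low-number and 3 high-number. Its lines lacked reads in 12.3% of cases, against 7.66% before it, and among low-number lines alone in 180 of 2217 (8.12%), against 1022 of 17311 (5.90%). When all lines were sorted by identifier, which interleaves the sections, none of the low-number members stood in a run any more. That order gave 38 runs, of which 37 were wholly high-number with 281 lines and 1 was low-number with 4 lines.

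**Figure D2:**
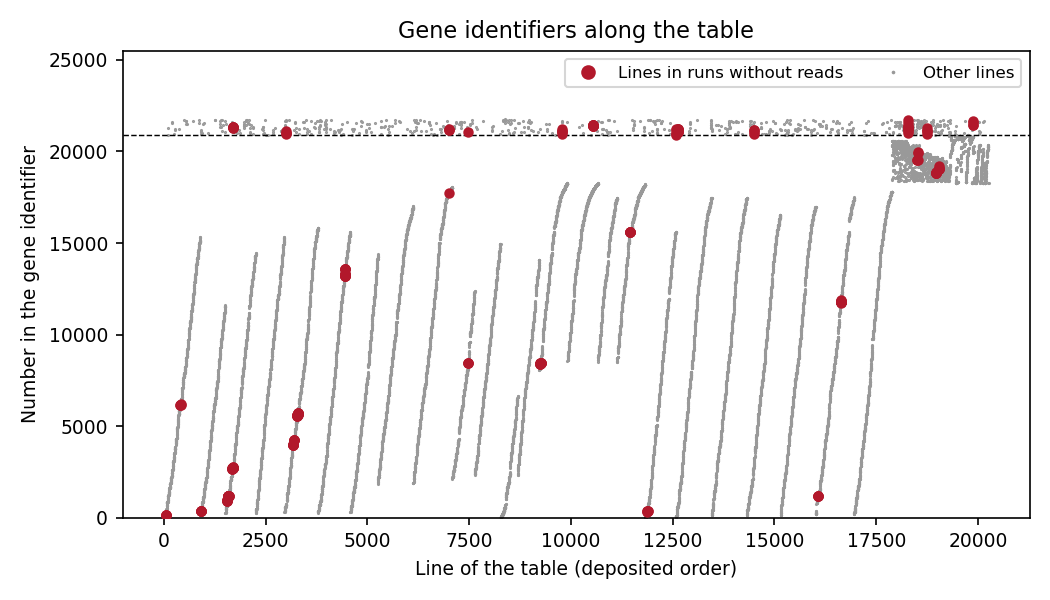
Number in the first gene identifier of a line (vertical) against its place in the deposited table (horizontal). Red points are the 204 lines in runs without reads, grey points the other lines, and the dashed line marks 20900, where the high-number lines begin; low-number identifiers rise in 24 sections, and the red points lie on the rising lines, in the band of high-number lines or in the less ordered last stretch.

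The 10 longest runs held 93 lines, 45.6% of the run lines. They are described by length, with the reads of the lines on both sides.

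The longest run comprised 14 lines from ENSORLG00000011755 to ENSORLG00000011891, all low-number. Its 13 identifier steps rose throughout, 12 of them by at most 10 and the last by 54. The line before it had 5 and 3 reads in replicates 1 and 2, and the line after it had 0 and 2 reads. Weak reads therefore bordered it on both sides, at 0.533 and 0.314 RPKM before it and 0 and 0.208 RPKM after it.

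Among the 3 runs of 11 lines, the one from ENSORLG00000001167 to ENSORLG00000001203 was the most regular, with 10 steps between 2 and 5 and 1 transcript in every line. It followed a line with 1 and 2 reads, ENSORLG00000001159, although that transcript is 2799 bp long. It was followed by ENSORLG00000001218 with 208 and 176 reads, or 3.47 and 2.89 RPKM. The run from ENSORLG00000008396 to ENSORLG00000008451 had the same shape. A line with 1 and 1 read stood before it and one with 63 and 78 reads after it. Its 10 steps lay between 1 and 16, and 9 of them were at most 10.

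The third run of 11 lines reached from ENSORLG00000005551 to ENSORLG00000005678, with steps between 6 and 23. The line before it, ENSORLG00000005538, had 1611 and 1668 reads, or 15.9 and 16.2 RPKM. ENSORLG00000005684 after it had 2 and 0 reads and parted it from a further run of 5 lines. Together these 17 lines held 2 reads in replicate 1 and 0 in replicate 2, directly behind ENSORLG00000005538.

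A run of 9 lines from ENSORLG00000002698 to ENSORLG00000021356 lay in the densest stretch of the table. It was mixed, with 8 low-number lines and a high-number line at its end. A single line parted it from a run of 4 lines before it, ENSORLG00000002697 with 7 and 6 reads, and another from a run of 6 lines after it, ENSORLG00000002762 with 17 and 17 reads. From the first to the last of these runs, 19 of 21 lines had no reads, and the whole stretch held 24 reads in replicate 1 and 23 in replicate 2. Of 40 successive lines beginning 1 line before it, 22 lacked reads, the most of any 40 lines in the table, where the mean is 3.28. The third such chain joined runs of 5 and 4 lines through ENSORLG00000013286, with 2 and 3 reads. In all, 4 pairs of runs were 1 line apart, and the median distance between successive runs was 417 lines.

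The other 2 runs of 9 lines were wholly high-number, as was the run of 7. ENSORLG00000021397 to ENSORLG00000021403 stood between lines with 16 and 21 reads before and 75 and 55 reads after. The run from ENSORLG00000021417 to ENSORLG00000021004 stood between stronger lines, with 330 and 409 reads before it and 619 and 647 reads after it, or 11.9 and 14.5 RPKM before and 38.9 and 39.99 RPKM after. The run of 7 lines, ENSORLG00000021070 to ENSORLG00000021080, had 82 and 62 reads before it and 1301 and 1292 after it. None of these 3 runs was bordered by a line with 3 reads or fewer.

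The first 2 of the 6 runs of 6 lines complete the set. The one from ENSORLG00000000367 to ENSORLG00000000396 was bordered by 0 and 2 reads before it and 5 and 0 reads after it, so that each border rested on reads in 1 replicate. The one from ENSORLG00000000904 to ENSORLG00000000968 had 609 and 565 reads before it and 0 and 6 reads after it. It included ENSORLG00000000958, whose 6 transcripts were the most of any run line. The other 24 runs had 4 to 6 lines.

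**Figure D3:**
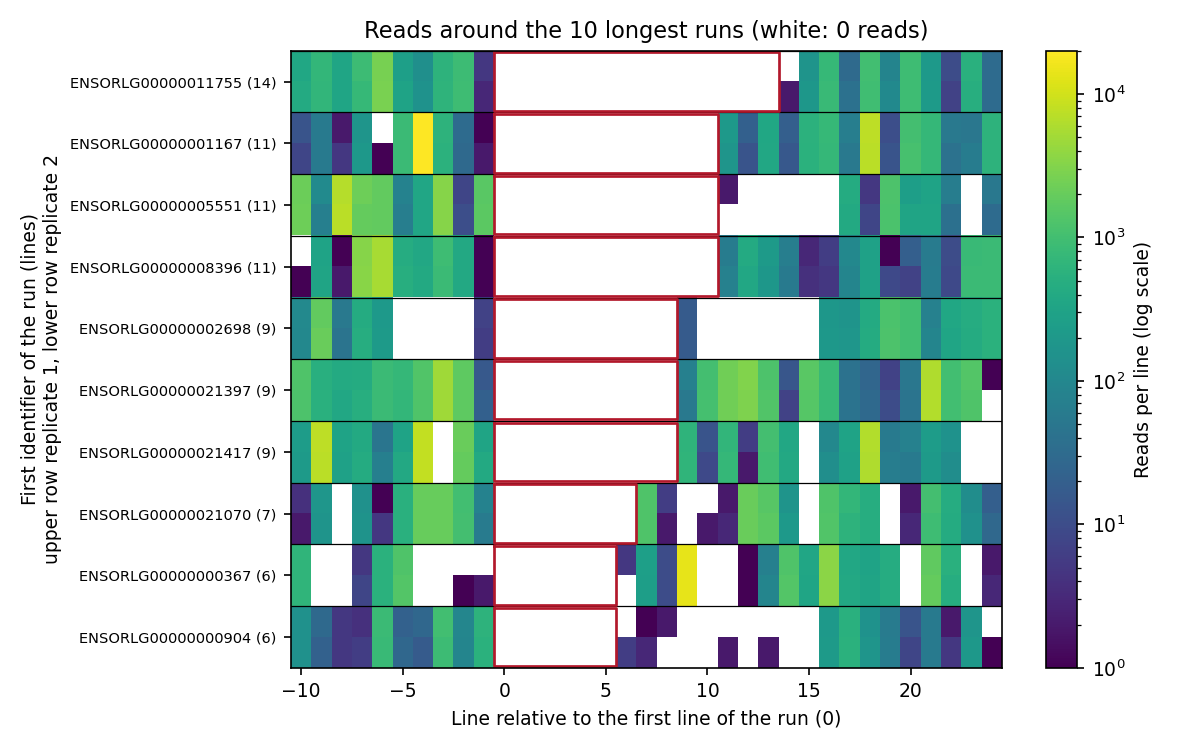
Reads per line (colour, log scale; white is 0 reads) around the 10 longest runs, with the place relative to the run's first line on the horizontal axis and 2 rows per run, replicate 1 above replicate 2. Red frames mark the runs of 6 to 14 lines; the run of 11 lines from ENSORLG00000005551 and the run of 9 from ENSORLG00000002698 are each followed by 1 weak line and a further run.

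The lines beside the runs were low for lines with reads. The 64 flanking lines, 4 of them shared by 2 runs, had a median of 2.66 RPKM over the mean of both replicates, with medians of 2.53 RPKM in replicate 1 alone and 2.52 RPKM in replicate 2 alone. All 18598 lines with reads had a median of 9.78 RPKM. Lines beside shorter groups of lines without reads, and beside no run, had a median of 5.51 RPKM over 2237 lines, and those beside groups of 2 or 3 4.01 RPKM over 425. Of the flanking lines, 27 (42.2%) were under 1 RPKM in both replicates, set beside a background of 21.2% of lines with reads. At most 3 reads over both replicates were counted for 13 (20.3%), with a background of 5.54%. A flanking line has a read by definition, so these lines were compared with lines with reads, and no test was made because entries are not replicates.

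Low levels belonged mainly to the borders of low-number runs. Their 40 flanking lines had a median of 0.706 RPKM (interquartile range 0.0622 to 4.69), and 21 of them were under 1 RPKM in both replicates. The 18 flanking lines of high-number runs had a median of 7.20 RPKM (1.47 to 28.8), with 4 under 1 RPKM. The same pair of medians for shorter groups was 4.92 RPKM over 1655 lines beside low-number ones and 7.29 RPKM over 552 beside high-number ones. The 7 lines beside mixed runs had a median of 1.27 RPKM. Known lengths of flanking lines had a median of 898.5 bp over 54 lines, against 1167 bp over all 14813 lines with 1 transcript and reads. Some borders were sharp all the same. The highest flanking line, ENSORLG00000000724, had 9848 and 9818 reads (272.2 RPKM) beside a run of 4 high-number lines. ENSORLG00000000146 had 5262 and 5287 reads (66.9 RPKM) beside a run of 4 low-number lines. The lowest, ENSORLG00000015617, had 0 and 1 read over 2043 bp (0.0106 RPKM).

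Low borders stood on 1 or both sides of most runs. Of the 34 runs, 20 had 1 flank under 1 RPKM in both replicates, 5 had both and 9 had neither. With 27 of the 64 flanking lines (42.2%) under 1 RPKM, many runs with 1 low flank would arise even if the sides were unrelated. Whether the 2 sides of a run were related was not tested. No run had both flanks at 3 reads or fewer, while 14 had 1 such flank and 20 had none. Just outside the threshold, 3 flanking lines had 1 read over both replicates and 8 had 2 reads. In 13 runs a flank was read in 1 replicate but not in the other, and such a run would be longer in that other replicate alone. Of the 64 flanking lines, 13 (20.3%) were at 0 in 1 replicate. The background was 927 of 18598 lines with reads (4.98%), and 9.07% of lines beside shorter groups only.

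**Figure D4:**
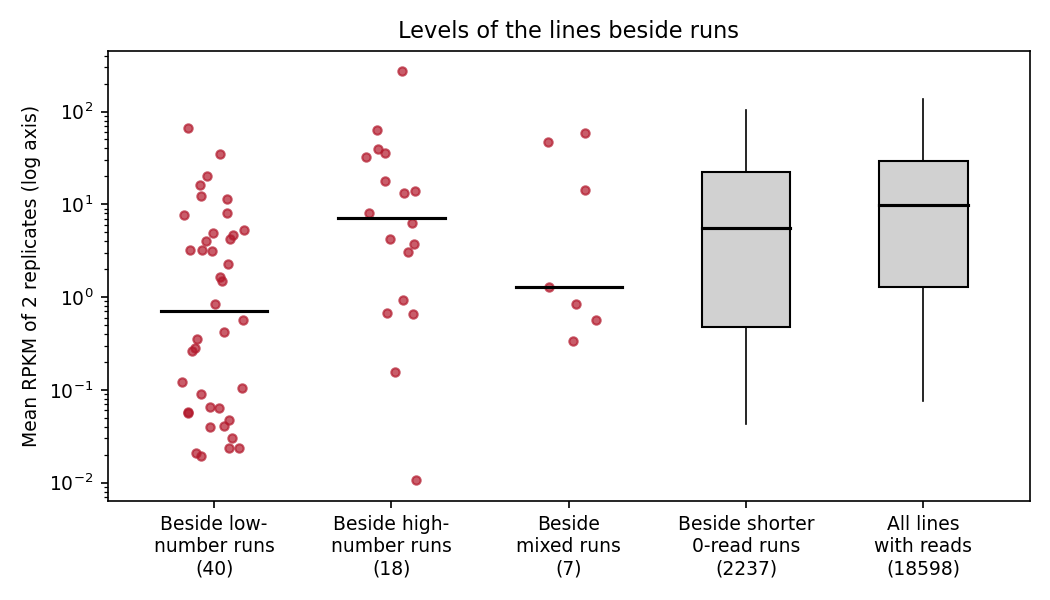
Mean RPKM of the 2 replicates (vertical, log axis) for the lines beside runs, by kind of run (red points, 1 per line, with the median as a bar), and for lines beside shorter groups without reads and all lines with reads (boxes: median and quartiles; whiskers: 5th to 95th percentile). Number of lines in brackets; a line between 2 runs of different kinds stands in both. The medians are 0.706, 7.20 and 1.27 RPKM beside low-number, high-number and mixed runs, against 5.51 and 9.78 RPKM in the boxes.

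The low median of lines with reads did not reach far. At a distance of 2 lines it was 5.09 RPKM, and over 2 to 5 lines together 12.0 RPKM (212 lines). At 3 lines it was 19.1 RPKM, the highest of the distances up to 10. At the single distances from 4 to 10 lines it varied between 7.32 and 18.4 RPKM. Beyond 50 lines the median was 9.69 RPKM. Lines under 1 RPKM in both replicates, those without reads included, made up 29.6% at 2 to 5 lines and 31.2% at 6 to 10. Beyond 50 lines they made up 26.8%. Further lines without reads were somewhat more frequent near runs. They made up 28 of 240 lines (11.7%) at a distance of 2 to 5 and 37 of 282 (13.1%) at 6 to 10, against 168 of 2032 (8.27%) at 11 to 50 and 1224 of 17437 (7.02%) beyond. The background over all lines outside runs was 7.27%. Among low-number lines alone the shares were 9.57% at 2 to 5 lines and 10.9% at 6 to 10, against 5.30% beyond 50. These shares rest on few lines and were not tested.

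Entries with several transcripts also occurred in runs. They were 22 of the 143 low-number run lines (15.4%, 95% exact binomial interval 9.90% to 22.4%). Outside runs they were 88 of 1059 low-number lines without reads (8.31%, 6.72% to 10.1%), and among low-number lines with reads 3785 of 18326 (20.7%). The 22 lines were spread over 12 runs. These intervals treat lines as independent, which neighbours are not, and the differences were not tested. A single run line joined 2 genes, ENSORLG00000000157 and ENSORLG00000000159, and no run line repeated an identifier found elsewhere.

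Both replicates had chosen the runs described so far, and neither gives an independent reading of them. A new set of runs was defined in 1 replicate alone and looked up in the other, which had no part in that choice. Replicate 1 alone gave 48 runs with 287 lines, the longest of 15. In replicate 2, 257 of these lines (89.5%, interval 85.4% to 92.8%) also had no read. Over the whole table, 1661 of the 2117 lines without reads in replicate 1 had none in replicate 2. The remaining 30 lines held 52 reads in all, with at most 6 in a line and at most 0.732 RPKM. Replicate 2 alone gave 43 runs with 254 lines, the longest of 17, and 233 of these (91.7%, interval 87.6% to 94.8%) had no read in replicate 1. The other 21 lines held 39 reads, with at most 7 in a line and at most 1.88 RPKM. Over the whole table it was 1661 of the 2132 lines without reads in replicate 2. In each direction 27 runs, of 48 and of 43, were without a read in the other replicate. By definition such runs are among those described above, so both replicates had chosen them.

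Lines outside runs were at 0 in the other replicate less often. Of low-number lines chosen in replicate 1, 87.1% in runs had no read in replicate 2, against 78.1% in groups of 2 or 3 and 69.4% standing alone. Chosen in replicate 2 and read in replicate 1, the shares were 89.8%, 77.5% and 68.5%. For high-number lines they were 97.1%, 96.3% and 88.5% in the first direction, and 96.2%, 94.7% and 90.4% in the second. The mean number of reads per line in the other replicate was 0.181 and 0.154 in runs, against 0.638 and 0.572 for lines standing alone. Both replicates thus gave the same order of these 3 groups. Among high-number lines, however, runs and groups of 2 or 3 hardly differed. Chosen in replicate 1, their intervals were 90.1% to 99.7% and 92.6% to 98.5%. Chosen in replicate 2, they were 89.2% to 99.2% and 90.4% to 97.4%. The directions share the lines without reads in both replicates and are not separate checks. The class boundary was also set with reads of both replicates. No test was made, since lines are not replicates.

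**Figure D5:**
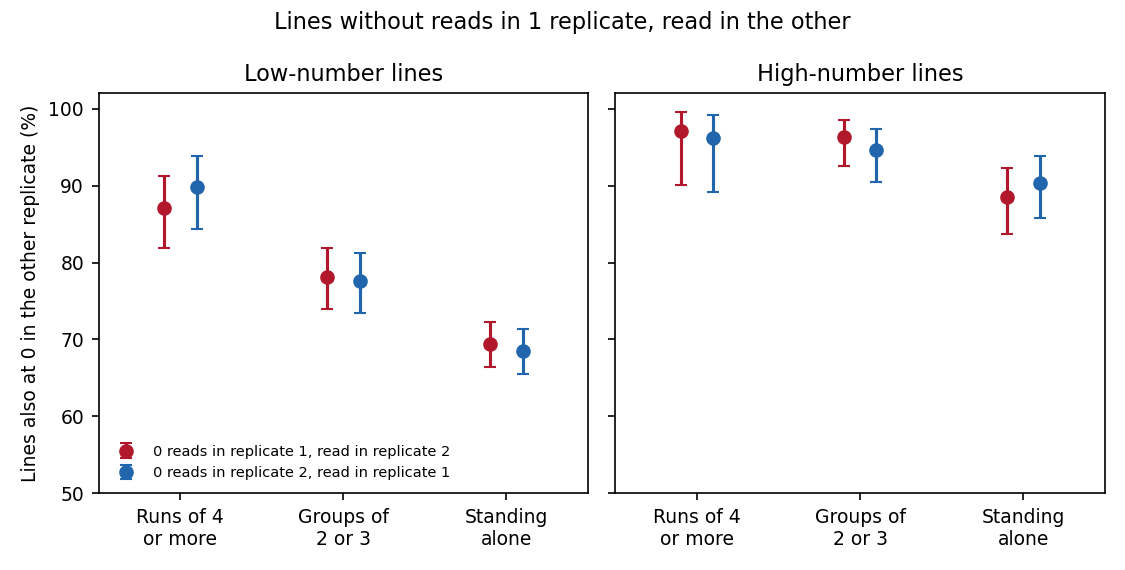
Share of lines without reads in 1 replicate that also had none in the other (vertical, percent, axis from 50%), by whether the line stood in a run of 4 or more, in a group of 2 or 3 lines, or alone; left low-number and right high-number lines. Red: chosen in replicate 1 and read in replicate 2; blue: the reverse; bars are 95% exact binomial intervals, which treat lines as independent. For low-number lines the shares are 87.1% and 89.8% in runs and 69.4% and 68.5% standing alone.

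A line without reads is not shown to be silent. With 0 reads in the libraries together, up to 3 reads were taken as still possible, a chosen bound and no hard limit. This is 0.0656 reads per 1000000 and covers counting error only. Known lengths are those of lines with reads, and for a shorter line the bound in RPKM is higher. At the median known length of low-number lines it is 0.0552 RPKM. At the 93 bp median of high-number lines it is 0.706 RPKM, so that a high-number line in a run could be expressed at a level well above the limit for a low-number one.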

How the data were processed

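Per the labels' protocols, RNA was extracted with Trizol from pools of 60 embryos. The submitters' processing notes name TopHat, a spliced aligner, without a version. The counter, genome build, annotation, strand setting and the treatment of reads that match several places are not stated, so counts of overlapping or near-identical genes are uncertain. The authors deposited raw read counts and RPKM values per gene entry, per the file headers. Both tables list the same 20259 lines in the same order. Totals of 22661195 and 23055861 counts set the depth.

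From these, runs were taken as 4 or more successive lines with 0 counts in both replicates. Averages for random line orders were calculated in closed form and tested on simulated data. Lengths of entries with 1 transcript were obtained from counts, RPKM and library totals of 22650004 and 23045699. These totals are estimates. They were worked out from the counts and RPKM of short entries with 1 transcript, with lengths rounded to whole bp, and differ slightly from the summed counts. Python 3.11.15, numpy 2.4.6, pandas 2.3.3, scipy 1.17.1 and matplotlib 3.10.9 were used. Runs named are the 10 longest with their flanks, plus the highest and lowest flanking line. Other named lines (those between or within runs, the second-highest flank) were chosen after their values were seen. The members, classes and comparisons were chosen with earlier results of these data known. Alternatives were run length, 1 read allowed, 1 replicate, no joined or repeated entries, and identifier order.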

Additional observations from a re-analysis of the deposited data

How the results depend on the processing

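The number of runs, 34 as reported, was 90 from 3 lines and 21 from 5 lines, and 22 without the high-number lines, an alternative chosen after seeing the data. With 1 replicate left out it was 43 to 48, and with 1 read allowed 49. Lines in runs, 204 as reported, were 372 from 3 lines, 152 from 5 lines and 138 without the high-number lines. They were 254 to 287 with 1 replicate left out, 277 with 1 read allowed and 285 in identifier order. The share of lines without reads that lay in runs, 12.3% as reported, was 22.4% from 3 lines, 9.15% from 5 lines and 17.2% in identifier order. Steps of 1 to 10 within runs, 58.2% over both classes, made up 100% in identifier order and 82.8% without the high-number lines. Sorting by identifier makes steps small by itself, so the 100% is no check of the deposited order. The median of flanking lines, 2.66 RPKM as reported, moved most. It was 4.92 RPKM from 3 lines, 1.37 RPKM from 5 lines, 3.83 RPKM with 1 read allowed, 1.23 RPKM in identifier order, 0.847 RPKM without the high-number lines, and 4.06 to 4.31 RPKM with 1 replicate left out, where flanking lines need a read in the kept replicate. It stayed under the 9.78 RPKM of all lines with reads in each of these. The cause of these shifts was not tested. Leaving out joined and repeated entries gave 33 runs. No paired analysis was possible because the study has a single group. Depth limits the border of a run: 13 of 64 flanking lines had 3 reads or fewer.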
